A study of Mus musculus with 10 samples.

Results

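The genes described here are 7 mouse genes of blood and lymphatic vessel growth and of platelet-derived growth factor (PDGF) signalling. They are the vascular endothelial growth factor (VEGF) genes Vegfa, Vegfb and Vegfc, the angiopoietin gene Angpt1, the PDGF ligand genes Pdgfa and Pdgfb, and the PDGF receptor gene Pdgfra. They were picked by name for their bearing on vascular mimicry, in which tumour cells themselves line channels that carry blood, and all 7 were found among the 23479 gene entries of the deposited table. RNA was sequenced from clone 4T1-T, which the labels trace to a single cell of the mouse mammary cancer line 4T1, so every group is a derivative of 1 clone. The 5 groups of 2 libraries (A and B) were infected with 1 of 2 short hairpin RNAs (shRNAs) against the secreted protease inhibitor gene Serpine2 (shSerpine2-1, shSerpine2-2), with 1 of 2 against the secreted protease inhibitor gene Slpi (shSlpi-1, shSlpi-2), or with a control hairpin against Renilla luciferase (shRenilla). All groups therefore carry a hairpin, and all were grown in culture in DMEM with both fetal bovine and fetal calf serum. The labels do not tell whether the A and B libraries of a group are separate cultures. The p-values therefore reflect only how far these libraries differed, a spread that may be technical.

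VEGF-A is the main growth factor for blood vessel endothelium and acts through the receptor Vegfr2 (Kdr). VEGF-B binds Vegfr1 (Flt1), and VEGF-C acts on lymphatic endothelium through Vegfr3 (Flt4). Angiopoietin-1 activates the receptor Tie2 (Tek) and stabilizes vessels, whereas angiopoietin-2 often opposes it. PDGF-A binds the receptor Pdgfra, and PDGF-B also binds Pdgfrb, through which it recruits the mural cells that wrap vessels.

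Levels are normalized reads (read counts divided by the size factor of the library), recovered from the deposited log2 values. Depth was 15877431 to 24026620 reads per library, and a gene with 0 counted reads may stand as high as 3 reads (2.30 to 3.48 normalized reads). Fold changes are on the scale log2(normalized reads + 1) with their standard error (SE). Genes are said to have risen or fallen where the adjusted p of limma was under 0.05 across the 12299 genes tested, among which were all 7 members. In bulk RNA, fewer cells that transcribe a gene and less RNA per cell cannot be told apart.

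Serpine2 had 128 and 139 normalized reads with shSerpine2-1, 489 and 514 with shSerpine2-2, 1342 and 1331 with shSlpi-1 and 1553 and 1731 with shSlpi-2, against 3256 and 3145 with shRenilla. Slpi had 326 and 414 with shSerpine2-1, 1111 and 1218 with shSerpine2-2, 145 and 147 with shSlpi-1 and 60.9 and 75.8 with shSlpi-2, against 1189 and 1313 with shRenilla. Each target was lowest in its own lines, and 3 of the 4 knockdown lines had less of both inhibitors than shRenilla. The shSlpi-2 libraries stood apart from the rest. They had 19938 and 20253 genes with reads and 6.88% and 6.91% of reads on the ribosomal RNA gene Rn45s, against 15887 and 16040 genes and 1.00% and 1.21% with shRenilla. Libraries A and B of shSlpi-2 also differed most, by a chi-square of 10.9 for each degree of freedom, where the other groups gave 1.55 to 2.76. Where leaving out shSlpi-2 ended a call, turned a sign or moved a log2 fold change with Slpi lowered by over 1.5 times, the value with shSlpi-1 alone is given beside it.

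Defining markers of other cells were scarce in every group. The summed level of 11 endothelial markers was 114 and 168 normalized reads with shSlpi-2 and 43.0 to 87.1 with the other 3 knockdown hairpins, against 36.9 and 62.8 with shRenilla. Mural cell markers summed over 9 genes to 46.0 to 107 in the knockdown libraries, against 85.3 and 94.8 with shRenilla. Leukocyte markers summed over 7 genes to 124 to 175, against 145 and 145, most of it from Cd68, and platelet markers over 5 genes to 34.5 to 56.5, against 36.9 and 28.7. Epithelial markers summed over 8 genes to 25620 to 31920 in the knockdown libraries, against 22180 and 21570 with shRenilla, and Cdh1 (E-cadherin) was the highest of them in every group.

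Promoter windows were at hand for 5 of 7 members, and not for Angpt1 and Pdgfb. For 3 of these members, stretches of the 250 bases before an annotated start site are shown. The stretches were taken from RefSeq on build GRCm38.p6 and are read 5′ to 3′ on the strand of the gene. They are given for Vegfa and Pdgfra, which fell in knockdown lines, and for Vegfb, which was not called in any comparison, and capitals mark matches to the GC box GGGCGG on either strand.
Vegfa, chr17:46032378-46032627, minus strand: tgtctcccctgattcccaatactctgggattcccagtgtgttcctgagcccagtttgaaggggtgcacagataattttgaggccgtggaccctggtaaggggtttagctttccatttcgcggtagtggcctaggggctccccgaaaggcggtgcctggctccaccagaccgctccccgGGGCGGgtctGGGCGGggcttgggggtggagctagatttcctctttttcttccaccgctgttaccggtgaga
Pdgfra, chr5:75152001-75152250, plus strand: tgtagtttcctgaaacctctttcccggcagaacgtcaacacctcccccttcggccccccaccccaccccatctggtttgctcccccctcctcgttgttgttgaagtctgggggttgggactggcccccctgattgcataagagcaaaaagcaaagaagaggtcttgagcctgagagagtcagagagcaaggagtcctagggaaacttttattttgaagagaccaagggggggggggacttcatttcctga
Vegfb, chr19:6987652-6987901, minus strand: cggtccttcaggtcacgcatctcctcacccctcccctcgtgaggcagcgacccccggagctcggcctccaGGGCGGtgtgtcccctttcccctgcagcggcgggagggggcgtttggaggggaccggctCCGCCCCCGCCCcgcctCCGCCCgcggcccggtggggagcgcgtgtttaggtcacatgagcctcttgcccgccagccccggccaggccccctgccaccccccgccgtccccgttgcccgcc
The Vegfa window shown held 2 GC boxes, that of Pdgfra 0 and that of Vegfb 4. Of all 32851 promoter windows of this length in the RefSeq table, 32.7% held at least 1. The window of Vegfb also held 2 matches to GCGTG, a core of the motif of hypoxia-inducible factors, which 28.2% of windows held. None of these 3 windows held the other core ACGTG, which 16.6% of all windows held. A second annotated Vegfa start has another window (chr17:46025164-46025413, minus strand, not shown), which held 1 match to ACGTG, 1 to GCGTG and 1 GC box. That window lies inside the Vegfa gene itself (46016993 to 46032369), so its matches are not upstream of the whole gene. None of these windows, that one included, held a TATA box, searched for as TATAAA and found in 12.4% of all windows. The AP-1 motif was searched for as TGANTCA, and it was in 0 of them and in 6.75% of all windows. All motifs were searched on both strands. GC content was 59.2% for the Vegfa window shown, 54.4% for Pdgfra and 76.4% for Vegfb, against a median of 52.4% over all windows. Matches of letters describe the window only and say nothing of binding.

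All 7 genes were transcribed in the tumour cells. In shRenilla cells the levels per kilobase (kb) of exon were 577 normalized reads for Vegfb, 469 for Pdgfa, 193 for Vegfc, 188 for Vegfa, 88.2 for Pdgfra, 66.1 for Pdgfb and 58.0 for Angpt1. Angpt1 varied most over the 10 libraries, with its highest library 3.91-fold above its lowest. The same ratio was 2.32 for Pdgfb, 2.06 for Pdgfra, 1.64 for Vegfa, 1.60 for Vegfc, 1.49 for Pdgfa and 1.35 for Vegfb.

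**Figure D1:**
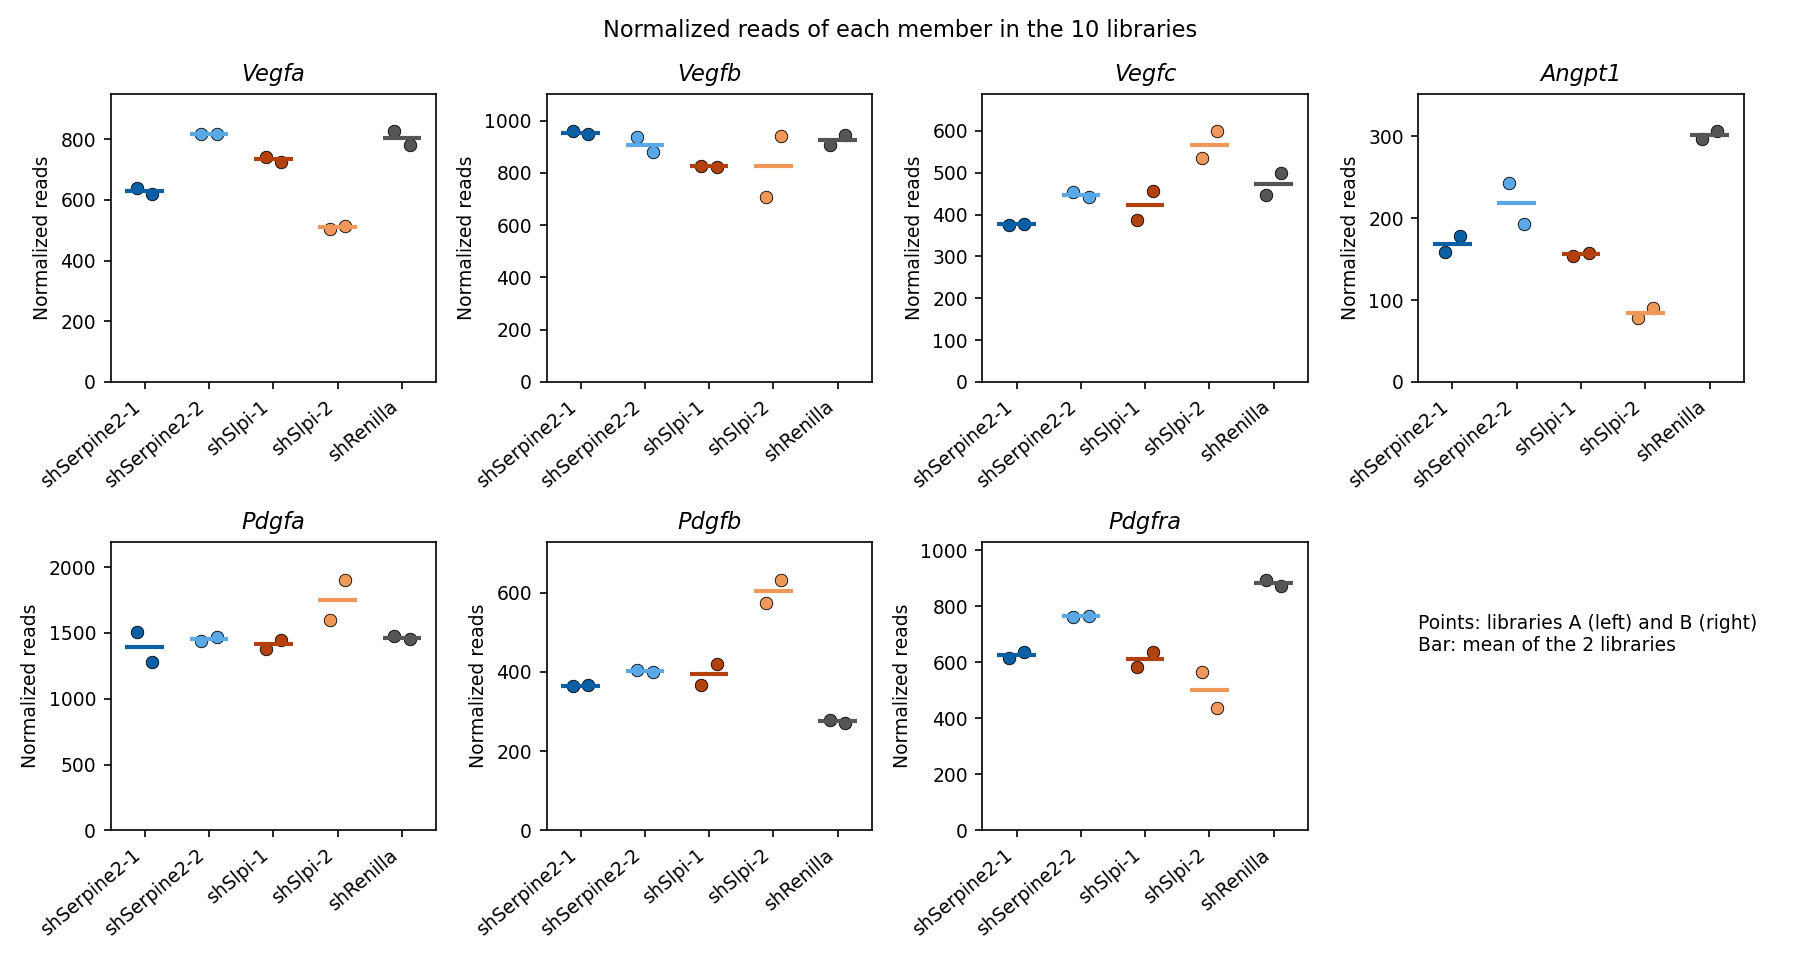
Normalized reads (vertical axis, from 0) of each gene in the libraries A and B of the knockdown groups and of shRenilla, with a bar at the mean of the 2 libraries. Angpt1 and Pdgfra were lower in all 8 knockdown libraries than in both shRenilla libraries, and Pdgfb was higher in all 8. The 4 libraries of 1 target lay on 1 side of both shRenilla libraries for 37.7% (Serpine2) and 40.1% (Slpi) of all genes tested. The share of genes for all 8 was not counted, which holds also for the genes named below.

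With Serpine2 lowered, the angiopoietin gene Angpt1 and the receptor gene Pdgfra fell and the ligand gene Pdgfb rose, while Vegfa, Vegfb, Vegfc and Pdgfa were not called. With Slpi lowered, the same 3 genes changed in the same directions and Vegfa fell as well. Thus 3 of 7 members were called in the first comparison, against 21.5% of all genes tested, and 4 of 7 in the second, against 34.8%. By direction, 1 rose and 2 fell with Serpine2 lowered, where 10.7% of genes tested rose and 10.8% fell. With Slpi lowered 1 rose and 3 fell, where 16.5% rose and 18.3% fell. The median absolute log2 fold change of the members was 0.201 with Serpine2 lowered and 0.395 with Slpi lowered, against 0.136 and 0.170 over all genes tested. With shSlpi-1 alone for Slpi there were also 4 members called, with Vegfb down in place of Vegfa, against 27.0% of genes tested, and the median absolute value of the members was 0.168. Both comparisons share the shRenilla libraries, so their likeness is not independent. Each hairpin line was also counted as 1 unit, so that the spread between hairpins of a target set the error. That fit left shRenilla with 1 unit and called no gene in either comparison, member or other. Its lack of calls is thus not particular to the members. The limma adjusted p of Angpt1 was then 0.932 with Serpine2 lowered and 0.372 with Slpi lowered.

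**Figure D2:**
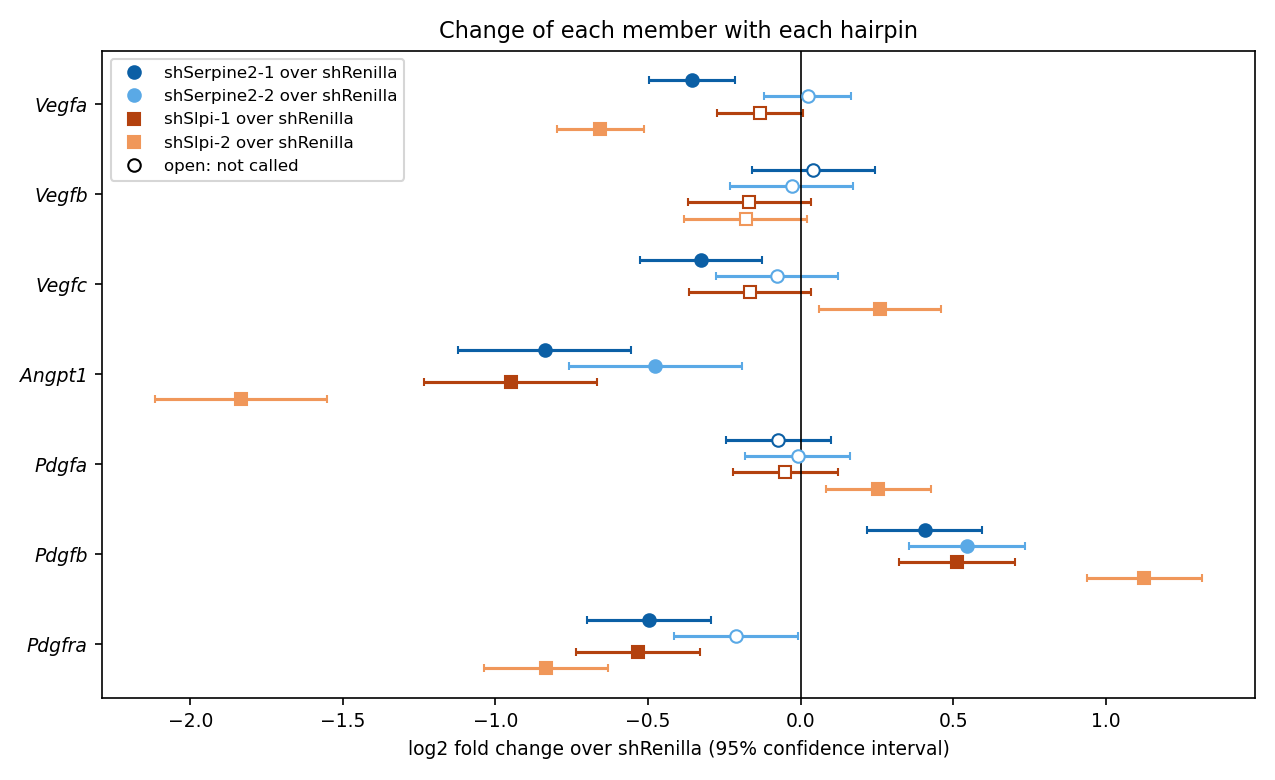
Log2 fold change over shRenilla (horizontal axis) of each gene with each hairpin, with 95% confidence intervals from limma and filled symbols for called changes. Angpt1 lies left of 0 and Pdgfb right of 0 with all 4 hairpins, and the shSlpi-2 symbols lie farthest from 0 for Vegfa, Angpt1, Pdgfb and Pdgfra.

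Vegfa lies on the minus strand of chromosome 17 (GRCm38, 46016993 to 46032369). It had 638 and 619 normalized reads with shSerpine2-1, 817 and 818 with shSerpine2-2, 741 and 726 with shSlpi-1 and 506 and 514 with shSlpi-2, against 827 and 782 with shRenilla. Vegfa was thus lowest with shSlpi-2 and next lowest with shSerpine2-1, and shSerpine2-2 lay within the range of shRenilla. Over both Slpi hairpins it fell by 0.39 on the log2 scale (SE 0.06, limma adjusted p = 7.44e-05). Without shSlpi-2 the value was -0.13 and the call ended (limma adjusted p = 0.127). Over both Serpine2 hairpins it was -0.17 (SE 0.06, limma adjusted p = 0.0519), just outside the threshold, and -0.17 with limma adjusted p = 0.0209 when the shSlpi-2 libraries were left out of the shared estimate of the spread. It was also called with only the libraries compared (limma adjusted p = 0.0172), with a mean of at least 50 reads (0.0459), with upper-quartile scaling (0.0403) and with voom (0.0479).

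The hairpins against 1 target differed for Vegfa. It was lower with shSerpine2-1 than with shSerpine2-2 by 0.38 on the log2 scale (value -0.38, SE 0.07, limma adjusted p = 0.00166). It was higher with shSlpi-1 than with shSlpi-2 by 0.52 (SE 0.07, limma adjusted p = 4.97e-05).

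Vegfb, on the minus strand of chromosome 19 (6982473 to 6987651), was the steadiest member. It had 960 and 947 normalized reads with shSerpine2-1, 937 and 881 with shSerpine2-2, 826 and 824 with shSlpi-1 and 709 and 943 with shSlpi-2, against 907 and 946 with shRenilla. Both shSlpi-1 libraries lay below both shRenilla libraries, and the shSlpi-2 libraries lay on either side of shSlpi-1. The log2 fold change was 0.01 over the Serpine2 hairpins (95% confidence interval -0.17 to 0.18, limma adjusted p = 0.965) and -0.17 over the Slpi hairpins (-0.35 to 0.0012, limma adjusted p = 0.116). The Slpi value depended on the widely spaced shSlpi-2 libraries and ranged from -0.28 to -0.07 over the other settings tried. Without library B of shSlpi-2 Vegfb was called at -0.28 (limma adjusted p = 2.13e-04). With shSlpi-1 alone it was called at -0.17 (limma adjusted p = 0.0356).

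Vegfc, the lymphatic growth factor gene on the plus strand of chromosome 8 (54077606 to 54187096), had 375 and 377 normalized reads with shSerpine2-1, 454 and 442 with shSerpine2-2, 388 and 456 with shSlpi-1 and 535 and 599 with shSlpi-2, against 447 and 499 with shRenilla. Only the shSlpi-2 libraries lay above both shRenilla libraries, and those of shSerpine2-1 were lowest. The log2 fold change was -0.20 over the Serpine2 hairpins (SE 0.08, limma adjusted p = 0.0911) and 0.05 over the Slpi hairpins (SE 0.08, limma adjusted p = 0.694). The Serpine2 value was called without both shSlpi-2 libraries in the fit (limma adjusted p = 0.0391) and with only the libraries compared (0.0246). The Slpi value was -0.17 with shSlpi-1 alone (limma adjusted p = 0.162). The Slpi hairpins had values of opposite sign against shRenilla, and shSlpi-1 was below shSlpi-2 by 0.43 on the log2 scale (value -0.43, SE 0.09, limma adjusted p = 0.00365). Leaving out library A of shSlpi-1 ended that call at -0.31 (limma adjusted p = 0.0585).

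Per kb of exon, Vegfa and Vegfc stood in different proportion with shSlpi-2. The ratio of Vegfa to Vegfc was 0.541 and 0.490 there, against 1.06 and 0.896 with shRenilla. It was 0.911 to 1.09 in the libraries of the other 3 hairpins.

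Angpt1, on the minus strand of chromosome 15 (42424723 to 42676977), was the member with the widest change. It had 159 and 178 normalized reads with shSerpine2-1, 243 and 193 with shSerpine2-2, 154 and 157 with shSlpi-1 and 78.3 and 90.0 with shSlpi-2, against 297 and 306 with shRenilla. All 8 knockdown libraries were below both shRenilla libraries, and shSlpi-2 was below every other group. Angpt1 fell by 0.66 on the log2 scale over the Serpine2 hairpins (SE 0.12, limma adjusted p = 9.40e-04), which is 1.58-fold lower. It fell by 1.39 over the Slpi hairpins (SE 0.12, limma adjusted p = 2.63e-07), which is 2.62-fold lower. Without shSlpi-2 the Slpi value was -0.95 (limma adjusted p = 3.75e-07).

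Each hairpin taken alone called Angpt1 as well. The log2 fold change was -0.84 with shSerpine2-1 (limma adjusted p = 7.77e-04), -0.48 with shSerpine2-2 (limma adjusted p = 0.0145), -0.95 with shSlpi-1 (limma adjusted p = 1.65e-04) and -1.83 with shSlpi-2 (limma adjusted p = 3.53e-08). The shSerpine2-2 call was the least firm. It ended without library A of shRenilla (-0.50, limma adjusted p = 0.0636), without library B of shRenilla (-0.45, limma adjusted p = 0.102) and without library B of shSerpine2-2 (-0.31, limma adjusted p = 0.212). Among all genes tested, 97.5% had a smaller absolute fold change than Angpt1 with Serpine2 lowered, and 99.6% with Slpi lowered.

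**Figure D3:**
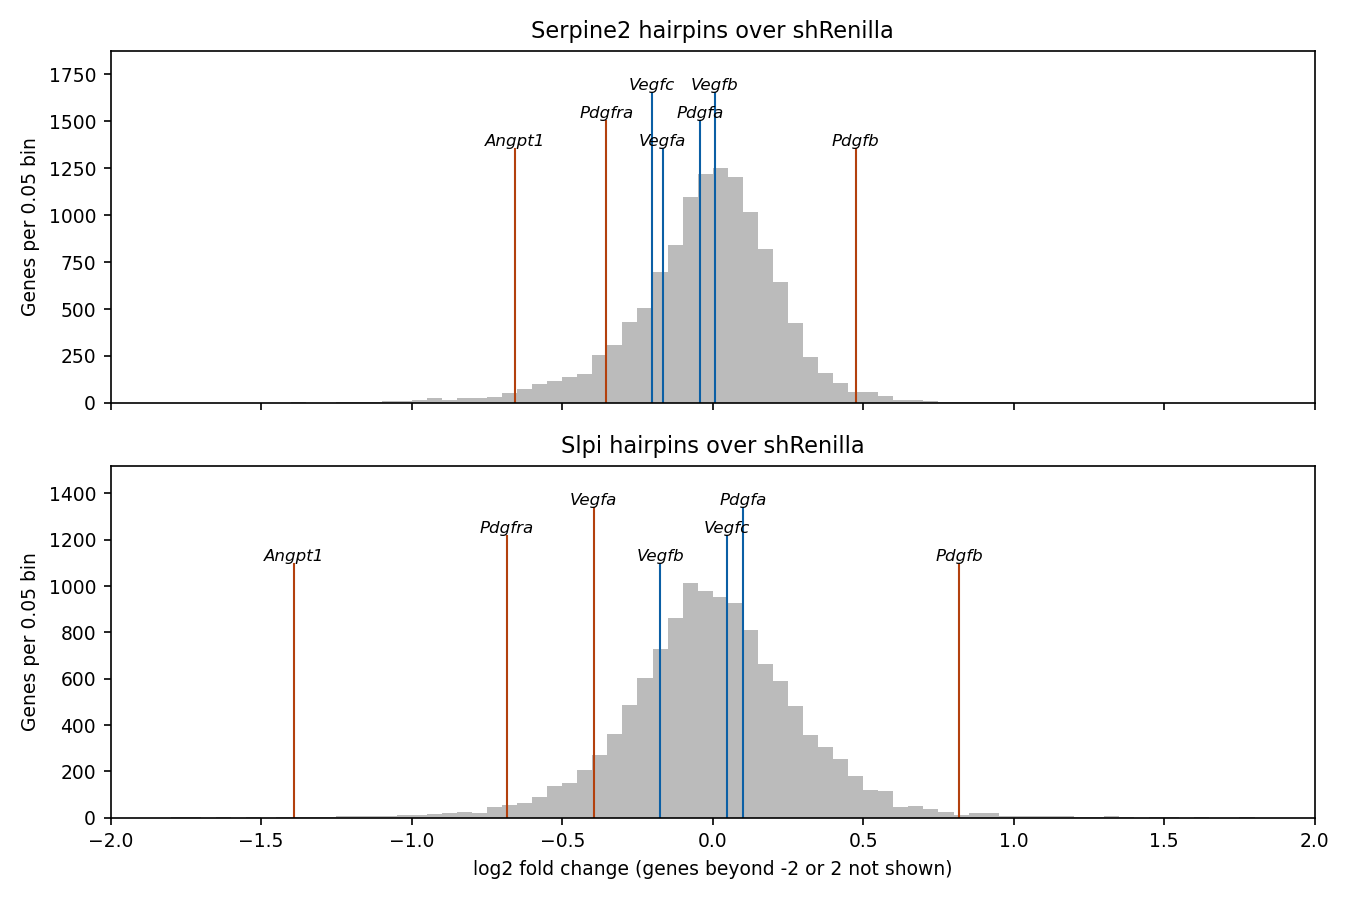
Number of tested genes per bin of log2 fold change (grey bars, bins of 0.05) with Serpine2 lowered above and Slpi lowered below, and the 7 members as lines, orange where called and blue where not. Angpt1 lies in the left tail in both comparisons, at -0.66 and -1.39, and Pdgfb in the right tail, at 0.48 and 0.82.

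The partner ligand gene Angpt2 also fell, in another pattern. It had 260 and 260 normalized reads with shSerpine2-1, 171 and 182 with shSerpine2-2, 272 and 284 with shSlpi-1 and 237 and 189 with shSlpi-2, against 325 and 274 with shRenilla. The lowest level was with shSerpine2-2, the hairpin with the smallest change of Angpt1. Angpt2 fell by 0.48 over the Serpine2 hairpins (SE 0.10, limma adjusted p = 0.00409) and by 0.30 over the Slpi hairpins (SE 0.10, limma adjusted p = 0.0365). The first call ended without library A of shRenilla (-0.36). The second ended without that library, either library of shSerpine2-1, either of shSlpi-1 or library B of shSlpi-2, with values of -0.42 to -0.18 when 1 library was left out. Without both shSlpi-2 libraries it was -0.10 (limma adjusted p = 0.525). By hairpin, Angpt2 was at -0.76 with shSerpine2-2 (limma adjusted p = 3.10e-04) and at -0.20, not called, with shSerpine2-1 (limma adjusted p = 0.331). These hairpins differed (shSerpine2-1 over shSerpine2-2, 0.56, limma adjusted p = 0.00614). Per kb, the ratio of Angpt1 to Angpt2 was 0.435 and 0.484 with shSerpine2-1, 1.01 and 0.754 with shSerpine2-2, 0.402 and 0.392 with shSlpi-1 and 0.234 and 0.337 with shSlpi-2, against 0.649 and 0.792 with shRenilla. It was thus lower than in both shRenilla libraries with 3 of the 4 hairpins, and not with shSerpine2-2.

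Pdgfa encodes the ligand specific to Pdgfra and lies on the minus strand of chromosome 5 (138976014 to 138997370). It had 1506 and 1281 normalized reads with shSerpine2-1, 1437 and 1469 with shSerpine2-2, 1374 and 1449 with shSlpi-1 and 1596 and 1904 with shSlpi-2, against 1473 and 1450 with shRenilla. The shSlpi-2 libraries were highest, and the shRenilla libraries lay among those of the other 3 hairpins. The log2 fold change was -0.04 over the Serpine2 hairpins (95% confidence interval -0.19 to 0.11, limma adjusted p = 0.725) and 0.10 over the Slpi hairpins (-0.05 to 0.25, limma adjusted p = 0.284). Without library A of shSlpi-2 the Slpi value was called at 0.17 (limma adjusted p = 0.0163), and with shSlpi-1 alone it was -0.05 (limma adjusted p = 0.579).

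Pdgfb, the ligand gene whose protein recruits mural cells, lies on the minus strand of chromosome 15 (79995874 to 80014977). It had 363 and 367 normalized reads with shSerpine2-1, 404 and 400 with shSerpine2-2, 368 and 419 with shSlpi-1 and 573 and 633 with shSlpi-2, against 278 and 272 with shRenilla. All 8 knockdown libraries were above both shRenilla libraries, with shSlpi-2 highest. Pdgfb rose by 0.48 on the log2 scale over the Serpine2 hairpins (SE 0.08, limma adjusted p = 5.23e-04) and by 0.82 over the Slpi hairpins (SE 0.08, limma adjusted p = 9.15e-07). Without shSlpi-2 the Slpi value was 0.51 (limma adjusted p = 4.82e-05). The ratio of Pdgfb to Pdgfa per kb was 0.181 to 0.269 in the 8 knockdown libraries, against 0.142 and 0.141 with shRenilla.

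Each hairpin alone called Pdgfb. The log2 fold change was 0.41 with shSerpine2-1 (limma adjusted p = 0.00824), 0.54 with shSerpine2-2 (limma adjusted p = 3.93e-04), 0.51 with shSlpi-1 (limma adjusted p = 0.00103) and 1.13 with shSlpi-2 (limma adjusted p = 9.41e-08). The shSerpine2-1 call ended without library B of shRenilla (0.39, limma adjusted p = 0.0891), without library A of shSerpine2-1 (0.41, limma adjusted p = 0.0644) and without library B of shSerpine2-1 (0.40, limma adjusted p = 0.0795).

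Pdgfra, the receptor tyrosine kinase gene for both ligands, lies on the plus strand of chromosome 5 (75152292 to 75198215). It had 615 and 637 normalized reads with shSerpine2-1, 763 and 765 with shSerpine2-2, 584 and 639 with shSlpi-1 and 564 and 436 with shSlpi-2, against 896 and 873 with shRenilla. All 8 knockdown libraries were below both shRenilla libraries, and shSerpine2-2 was nearest to them. Pdgfra fell by 0.35 on the log2 scale over the Serpine2 hairpins (SE 0.08, limma adjusted p = 0.00645) and by 0.68 over the Slpi hairpins (SE 0.08, limma adjusted p = 1.19e-05). By hairpin, Pdgfra was at -0.50 with shSerpine2-1 (limma adjusted p = 0.00333) and at -0.21, not called, with shSerpine2-2 (limma adjusted p = 0.114). The shSerpine2-2 value was called without both shSlpi-2 libraries in the fit (limma adjusted p = 0.0127). The Serpine2 call ended without library A of shRenilla (-0.34, limma adjusted p = 0.0769) and without library B of shRenilla (-0.37, limma adjusted p = 0.0750). It also ended with no filter on low values (limma adjusted p = 0.0516) and with eBayes without trend (0.0625). Without shSlpi-2 the Slpi value was -0.53 (limma adjusted p = 3.00e-07).

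Pdgfra also serves as a fibroblast marker. The other 7 markers of the fibroblast list summed to 108 and 82.4 normalized reads with shSlpi-2 and 23.4 to 53.4 with the other 3 knockdown hairpins, against 23.2 and 24.2 with shRenilla. They were highest with shSlpi-2, where Pdgfra was lowest, and Pdgfra alone exceeded their sum in every library. Their part in the result was not tested.

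For 4 members the annotation places genes on the opposite strand, namely Gm17473 at Angpt1, 6330403L08Rik at Pdgfa, Gm41361 at Pdgfb, and Gm42802 and Gm42803 at Pdgfra. The microRNA genes Mir7213 at Pdgfb and Mir7025 at Pdgfra lie on the same strand as the member. The sources used here do not state whether counting used strand, so reads of opposite-strand pairs cannot be told apart.

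In the Serpine2 comparison all 4 knockdown libraries lay on 1 side of both shRenilla libraries for 3 members, Angpt1 and Pdgfra below and Pdgfb above, as they did for 37.7% of all genes tested. In the Slpi comparison this held for the same 3 and for Vegfa below, and for 40.1% of genes tested. The share for the knockdown libraries of both targets at once was not counted. From low to high, the group means of Angpt1 and of Pdgfra ran shSlpi-2, shSlpi-1, shSerpine2-1, shSerpine2-2 and shRenilla, which is the order of the means of Slpi itself. The same order was found in 266 of 12299 genes (2.16%). For Angpt1 no neighbouring groups in that order had overlapping libraries, and for Pdgfra those of shSlpi-1 and shSerpine2-1 did. The other members had neither the order of Slpi nor its reverse, which 140 genes (1.14%) had. Orders were compared with that of Slpi only.

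Taken hairpin by hairpin, shSerpine2-1 called 5 of 7 members (Pdgfb up and Vegfa, Vegfc, Angpt1 and Pdgfra down), against 10.5% of genes tested. The hairpin shSerpine2-2 called 2 (Pdgfb up and Angpt1 down), against 27.5%. With shSlpi-1 there were 3 calls (Pdgfb up, Angpt1 and Pdgfra down), against 17.5%. With shSlpi-2 there were 6 (Vegfc, Pdgfa and Pdgfb up and Vegfa, Angpt1 and Pdgfra down), against 42.4%. The count with shSerpine2-1 was 2 without either of its own libraries and 3 without library B of shRenilla. The count with shSerpine2-2 was 1 without either shRenilla library or its own library B. The rises of Vegfc (0.26, limma adjusted p = 0.0352) and Pdgfa (0.25, limma adjusted p = 0.0185) with shSlpi-2 ended without library A of shRenilla or library B of shSlpi-2. That of Pdgfa also ended without library B of shRenilla, and that of Vegfc without either library of shSerpine2-2. Both also ended with no filter on low values (limma adjusted p = 0.0602 for Vegfc and 0.0637 for Pdgfa) and with eBayes without trend (0.0774 and 0.101), and that of Vegfc with only the libraries compared (0.0720). With shSerpine2-1, the fall of Vegfc (-0.33) ended without the filter and with quantile normalization (limma adjusted p = 0.0523), voom (0.0572) or eBayes without trend (0.117), and that of Pdgfra (-0.50) with eBayes without trend (0.0657).

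The direct test of the Serpine2 hairpins over the Slpi hairpins called 5 of 7 members, against 17.5% of genes tested. Angpt1 was higher in the Serpine2 lines by 0.73 on the log2 scale (SE 0.09, limma adjusted p = 7.34e-05), Pdgfra by 0.33 (SE 0.07, limma adjusted p = 0.00354) and Vegfa by 0.23 (SE 0.05, limma adjusted p = 0.00376). Pdgfb was lower at -0.34 (SE 0.06, limma adjusted p = 0.00154), as was Vegfc at -0.25 (SE 0.07, limma adjusted p = 0.0170).

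Several of these differences were smaller when shSlpi-1 alone stood for Slpi. Angpt1 was then at 0.29 (limma adjusted p = 0.0481) and Pdgfra at 0.18 (limma adjusted p = 0.0286), both still called. Vegfa was at -0.03 (limma adjusted p = 0.733), Pdgfb at -0.04 (limma adjusted p = 0.790) and Vegfc at -0.03 (limma adjusted p = 0.795), and Vegfb was called at 0.17 (limma adjusted p = 0.0191). Of these calls, that of Vegfc also ended without any 1 of 5 libraries, namely both of shSerpine2-1, both of shSerpine2-2 and library B of shSlpi-1, at -0.26 to -0.19. With eBayes without trend the calls of Vegfc (limma adjusted p = 0.0716) and Pdgfra (0.0544) ended.

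The 2 Serpine2 hairpins differed in 1 member, Vegfa, where 14.7% of genes tested were called. Without both shSlpi-2 libraries in the fit, further members were called between them (shSerpine2-1 over shSerpine2-2). These were Pdgfra (-0.29, limma adjusted p = 0.00160), Angpt1 (-0.36, limma adjusted p = 0.0235) and Vegfc (-0.25, limma adjusted p = 0.0314). No share over all genes is given for that fit. The 2 Slpi hairpins differed in 6, all but Vegfb, where 26.1% were called. Of these 6, Angpt1 was higher with shSlpi-1 by 0.88 (SE 0.13, limma adjusted p = 1.98e-04), and Pdgfb was lower at -0.61 (SE 0.09, limma adjusted p = 1.49e-04).

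The receptors of these ligands were unevenly transcribed in the same cells. The co-receptor gene Nrp2, which binds semaphorins and VEGF-C, averaged 1503 normalized reads per kb in shRenilla, more than any other gene of the 3 families. Nrp1, the co-receptor gene for VEGF-A, was at 84.1 per kb and Flt1 at 68.4 per kb. In contrast Kdr, Flt4, Tek, Angpt4, Pdgfd and Pdgfrb, at 0 to 16 reads in every library, were under the limit for testing, and Pdgfrb had at most 4 reads. In shRenilla Kdr had 0 and 3 reads and Flt4 had 1 and 0. With shSlpi-2 Kdr had 9 and 16 reads and Flt4 had 8 and 13, the highest group means of each. With the other knockdown hairpins Kdr had 1 to 6 reads and Flt4 had 0 to 9. These differences were not tested.

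**Figure D4:**
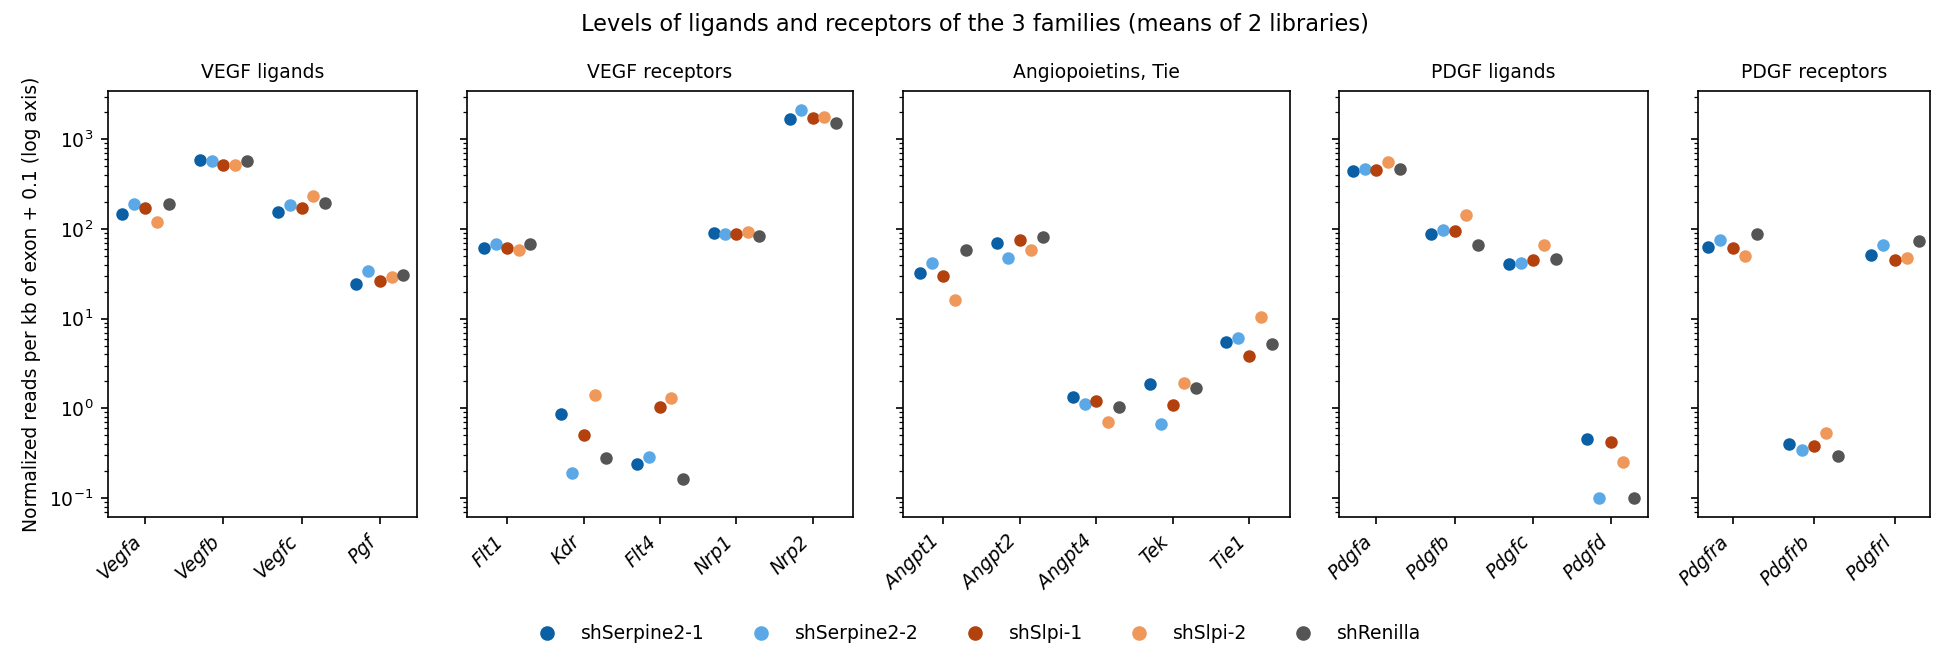
Mean normalized reads per kb of exon of 2 libraries, plus 0.1, on a log axis, for ligand and receptor genes of the VEGF, angiopoietin and PDGF families in the knockdown groups and shRenilla. Nrp2 is highest at 1503 per kb in shRenilla, and Kdr, Flt4, Pdgfd and Pdgfrb lie near 1 or below in every group.

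Nrp2 was higher in all 8 knockdown libraries than in both shRenilla libraries. Its mean was 20054 normalized reads with shSerpine2-1, 25202 with shSerpine2-2, 20340 with shSlpi-1 and 21196 with shSlpi-2, against 17798 with shRenilla. It rose by 0.34 over the Serpine2 hairpins (SE 0.04, limma adjusted p = 3.58e-05) and by 0.22 over the Slpi hairpins (SE 0.04, limma adjusted p = 3.01e-04). Pdgfrl, a gene for a secreted receptor-like protein, had 160 and 157 normalized reads with shSerpine2-1, 194 and 220 with shSerpine2-2, 150 and 133 with shSlpi-1 and 143 and 153 with shSlpi-2, against 234 and 226 with shRenilla. All 8 knockdown libraries were below both shRenilla libraries. By hairpin, Pdgfrl was at -0.53 with shSerpine2-1 (limma adjusted p = 0.00970) and at -0.15, not called, with shSerpine2-2 (limma adjusted p = 0.368). These hairpins differed (shSerpine2-1 over shSerpine2-2, -0.38, limma adjusted p = 0.0444). Pdgfrl fell by 0.66 over the Slpi hairpins (SE 0.10, limma adjusted p = 1.37e-04) and by 0.34 over the Serpine2 hairpins (SE 0.10, limma adjusted p = 0.0275), and the second call ended without either library of shRenilla or of shSerpine2-1 or library A of shSerpine2-2 (range -0.39 to -0.30). Flt1 fell by 0.18 over the Slpi hairpins (SE 0.06, limma adjusted p = 0.0358), a call that ended without library B of shRenilla, either library of shSerpine2-2 or library A of shSlpi-1 (range -0.25 to -0.12), and without shSlpi-2 (-0.15, limma adjusted p = 0.104).

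The remaining ligands and receptors of the 3 families were not called against shRenilla in either comparison. Their log2 fold changes with Serpine2 and with Slpi lowered were -0.18 and 0.21 for Pdgfc, -0.07 and -0.11 for Pgf, 0.10 and 0.11 for Nrp1, 0.21 and 0.32 for Tie1 and -0.20 and -0.32 for the VEGF-D gene (listed under its older symbol Figf). With shSlpi-1 alone the Slpi values were -0.05 for Pdgfc, -0.18 for Pgf, 0.06 for Nrp1, -0.38 for Tie1 and -0.36 for Figf, none called. With shSlpi-2 alone Pdgfc rose by 0.48 (limma adjusted p = 0.00577) and Tie1 by 1.01 (limma adjusted p = 0.0275), and both differed between the Slpi hairpins (shSlpi-1 over shSlpi-2, -0.54 with limma adjusted p = 0.00571 for Pdgfc and -1.39 with limma adjusted p = 0.00798 for Tie1). By family, 1 of 8 tested VEGF genes rose and 0 fell with Serpine2 lowered, and 1 rose and 2 fell with Slpi lowered. Of 3 angiopoietin and Tie genes tested, 2 fell in each comparison, and of 5 PDGF genes tested, 1 rose and 2 fell in each. With shSlpi-1 alone, 1 VEGF gene rose and 1 fell, 1 angiopoietin gene fell, and the PDGF count was again 1 and 2. These family counts include the members. Over all genes tested, 21.5% were called with Serpine2 lowered, 34.8% with Slpi lowered and 27.0% with shSlpi-1 alone.

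Vegfa is a known target gene of hypoxia-inducible factors, and a list of 24 tested target genes of these factors, which leaves Vegfa out, was examined beside it. With Serpine2 lowered 2 rose and 8 fell (median log2 fold change -0.06), where 10.7% of all genes tested rose and 10.8% fell (median -0.0014). With Slpi lowered 3 rose and 11 fell (median -0.13), where 16.5% rose and 18.3% fell (median -0.0055). With shSlpi-1 alone 4 rose and 6 fell (median -0.03), where 27.0% of all genes tested were called in either direction. Car9, the carbonic anhydrase gene widely used as a hypoxia marker, had 1896 and 1707 normalized reads with shSerpine2-1, 1679 and 1681 with shSerpine2-2, 2274 and 2318 with shSlpi-1 and 1288 and 1374 with shSlpi-2, against 2921 and 2842 with shRenilla. It was lower in all 8 knockdown libraries, and fell by 0.73 (SE 0.05, limma adjusted p = 1.79e-07) and by 0.72 (SE 0.05, limma adjusted p = 5.13e-08). Without shSlpi-2 the Slpi value of Car9 was -0.33 (limma adjusted p = 6.72e-06). Ero1l, a disulfide-forming oxidase of the endoplasmic reticulum, fell by 0.40 and 0.42 (-0.27 with shSlpi-1 alone), and the histone demethylase gene Kdm3a fell by 0.30 and 0.41 (-0.28 with shSlpi-1 alone). The mitophagy gene Bnip3 fell by 0.35 with Serpine2 lowered (limma adjusted p = 4.72e-04), and its Slpi value of -0.27 (limma adjusted p = 0.00141) was 0.018 without shSlpi-2 (limma adjusted p = 0.869).

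Among 7 tested regulators of these factors, 0 rose and 1 fell with Serpine2 lowered, and 1 rose and 2 fell with Slpi lowered. That is 1 of 7 called against 21.5% of all genes tested, and 3 of 7 against 34.8%. With shSlpi-1 alone again 1 rose and 2 fell, where 27.0% of genes tested were called, but the gene that rose was another. Egln2 rose with Slpi lowered (0.33, limma adjusted p = 0.0426) and was at 0.21, not called, with shSlpi-1 alone (limma adjusted p = 0.262). Egln3, a prolyl hydroxylase that marks the factors for decay and is itself one of their targets, fell by 0.26 (SE 0.05, limma adjusted p = 9.64e-04) and by 0.63 (SE 0.05, limma adjusted p = 6.30e-08). The second value was -0.30 with shSlpi-1 alone (limma adjusted p = 3.74e-06). Hif1a, which encodes the oxygen-regulated subunit, fell by 0.34 with Slpi lowered (SE 0.04, limma adjusted p = 1.85e-05).

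Of 12 tested genes of proteases and cofactors that process VEGF and PDGF ligands, 0 rose and 3 fell in each comparison, where 21.5% and 34.8% of all genes tested were called. With shSlpi-1 alone 5 fell, where 27.0% of genes were called. Plat, the tissue plasminogen activator gene, whose protein cleaves latent PDGF-C, fell by 0.64 (SE 0.13, limma adjusted p = 0.00269) and by 0.85 (SE 0.13, limma adjusted p = 1.21e-04). Of 29 tested genes of signalling below receptor tyrosine kinases, 3 rose and 2 fell with Serpine2 lowered, and 5 rose and 8 fell with Slpi lowered (3 and 8 with shSlpi-1 alone). Thus 5 of 29 were called in the first comparison, against 21.5% of all genes tested, and 13 of 29 in the second, against 34.8%. With shSlpi-1 alone 27.0% of all genes tested were called. Yes1, a Src family kinase gene, fell by 0.29 and 0.59, and Akt1, a kinase gene of cell survival, rose by 0.25 and 0.27 in these comparisons. The Slpi value of Akt1 was 0.12 with shSlpi-1 alone (limma adjusted p = 0.0245). Pik3ca, the catalytic subunit of a lipid kinase upstream of Akt, fell by 0.32 with Slpi lowered (SE 0.04, limma adjusted p = 3.63e-05), and stood at -0.21 with shSlpi-1 alone (limma adjusted p = 4.73e-04).

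Of 9 tested genes of angiogenesis inhibitors, 3 rose and 0 fell with Serpine2 lowered, and 3 rose and 2 fell with Slpi lowered (2 and 1 with shSlpi-1 alone). The shares over all genes tested were 21.5% called with Serpine2 lowered, 34.8% with Slpi lowered and 27.0% with shSlpi-1 alone. Thbs1, the thrombospondin-1 gene, had 7169 and 6954 normalized reads with shSerpine2-1, 7285 and 6939 with shSerpine2-2, 6840 and 7559 with shSlpi-1 and 6276 and 5886 with shSlpi-2, against 5082 and 4793 with shRenilla. All 8 knockdown libraries were above both shRenilla libraries, and Thbs1 rose by 0.52 (SE 0.05, limma adjusted p = 4.27e-06) and by 0.42 (SE 0.05, limma adjusted p = 6.66e-06). Adamts1, a metalloprotease gene whose protein binds VEGF-A, rose by 0.41 (SE 0.05, limma adjusted p = 8.35e-05) and by 0.76 (SE 0.05, limma adjusted p = 3.90e-08).

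Of 18 other secreted factors that act on vessels, 6 rose and 3 fell with Serpine2 lowered, and 6 rose and 4 fell with Slpi lowered (5 and 5 with shSlpi-1 alone). Thus 9 of 18 were called where 21.5% of all genes tested were, and 10 of 18 where 34.8% were. The share over all genes tested was 27.0% with shSlpi-1 alone. Tgfa, a ligand gene of the epidermal growth factor receptor, fell by 0.47 and by 0.96, and Angptl2, an angiopoietin-like gene, fell by 0.29 and by 0.53. The matricellular genes Cyr61 and Ctgf rose, Cyr61 by 0.37 and 0.65 and Ctgf by 0.40 and 0.75. In limma's test the adjusted p of these 8 changes was between 1.47e-10 and 3.24e-04.

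Genes whose profile over the 10 libraries was most like that of a member were found by the root mean square (RMS) difference of centred log2 profiles among 9927 genes. Nearest to Angpt1 were Trib2 (RMS 0.13) and the osteopontin gene Spp1 (RMS 0.15), where Angpt1's own RMS deviation was 0.61. Nearest to Pdgfra were the neurotrophin gene Bdnf (RMS 0.07) and Loxl3 (RMS 0.09), against its own 0.30. Nearest to Vegfa were Ndrg1 (RMS 0.09) and Evi2a (RMS 0.09), against its own 0.26, and nearest to Pdgfb were the centrin gene Cetn2 (RMS 0.11) and D17Wsu104e (RMS 0.12), against its own 0.37. Vegfb (own RMS 0.13), Vegfc (0.21) and Pdgfa (0.14) varied little, and their nearest genes were Pura and Nfix (RMS 0.06 and 0.07), Slc35c2 and Pdzd4 (0.09 and 0.09) and Tor3a and Ppp1r18 (0.06 and 0.06). Over so few groups such likeness is a description only.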

How the data were processed

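Per the labels' protocols, 100 ng of total RNA per library was turned into amplified cDNA (NuGEN Ovation kit) and read in 76 bp reads. Per the submitters' processing notes, the authors used Bowtie2, HTSeq and DESeq with genome build mm10. Which versions, annotation and settings were used is not given in the sources used here. The authors deposited log2 values per gene and library. Each column starts at 6.733366499, the form of a variance-stabilizing transformation, which no label names. Inverting it gave normalized reads that were whole multiples of 1 read in each library (100% within 0.01 reads). The transformation compresses differences of weak genes, so the inverted values were used.

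Genes with a mean of at least 10 normalized reads (12299 of 23479) were tested on log2(value + 1) with limma 3.58.1 in R 4.3.3, as 5 group means over 10 libraries, with eBayes and a mean-variance trend. A pair of hairpins against 1 target entered as the mean of its groups. P-values are two-sided and Benjamini-Hochberg adjusted over all genes tested, and the threshold was 0.05. Because the test pools the spread, the widely spaced shSlpi-2 libraries raise it for the other groups. For shSlpi-2 itself the pooled spread may be too small, and so may the SE and p-values of comparisons that include it. With only the libraries compared, 3500 genes were called for Slpi over shRenilla, where the pooled fit called 4281. The pseudocount of 1 understates changes of weak genes. The method was tested on simulated data in which all groups had the same spread and both Slpi hairpins the same change. That test therefore covers neither the wide spread of shSlpi-2 nor differences between hairpins of a target.

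Groups and letters come from the sample titles. The letters do not pair libraries across groups. Of 10 pairs of groups, 0 had a correlation of same-letter deviations over 0.1 (range -0.07 to 0.07). Limits for a count of 0 cover counting error alone, because cDNA was amplified. Positions come from the GENCODE M21 annotation of GRCm38, and promoter windows from RefSeq on GRCm38.p6, in which 5 of 7 members matched. The deposited gene names include 27 that read as dates, a spreadsheet error, and these stayed in the fit unnamed.

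The members and the gene lists were chosen with earlier results of these data known, so counts over lists are descriptions. Named are all members, the ligands and receptors of their families, up to 4 called genes per list and comparison by smallest p, the 2 genes most like each member and both targets. From these some were left out of the text for brevity. Other settings tried covered the pseudocount, the filter, the scaling, the deposited values, limma's voom, fewer libraries, each library left out, a replicate block, hairpin lines as units and eBayes without trend. An alternative without shSlpi-2 in the Slpi comparisons was added after seeing the data.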

Additional observations from a re-analysis of the deposited data

Results flagged for a closer look

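The hairpins against 1 target differed in their effect on 6 of the 7 members, by limma's test of the difference itself. Between the Serpine2 hairpins, Vegfa stood at -0.38 (log2, shSerpine2-1 over shSerpine2-2, limma adjusted p = 0.00166). Between the Slpi hairpins (shSlpi-1 over shSlpi-2), the log2 differences were 0.88 for Angpt1 (limma adjusted p = 1.98e-04), 0.52 for Vegfa (4.97e-05), 0.30 for Pdgfra (0.0299), -0.43 for Vegfc (0.00365), -0.30 for Pdgfa (0.0114) and -0.61 for Pdgfb (1.49e-04). The call of Pdgfra ended without library B of shSlpi-1 (0.23) or of shSlpi-2 (0.11), that of Pdgfa without library A of shSlpi-1 (-0.27) or library B of shSlpi-2 (-0.18), and that of Vegfc without library A of shSlpi-1 (-0.31). The calls of Pdgfra and Pdgfa also ended with no filter on low values (limma adjusted p = 0.0895 for Pdgfra and 0.0578 for Pdgfa), with only the libraries compared (0.155 and 0.0681) and with eBayes without trend (0.117 and 0.0888). Background was 14.7% of genes between the Serpine2 hairpins and 26.1% between the Slpi hairpins. The Slpi level itself was 145 and 147 normalized reads with shSlpi-1 and 60.9 and 75.8 with shSlpi-2. The part of that gap, and of the larger share of Rn45s reads with shSlpi-2 (6.88% and 6.91%, against 1.96% and 1.89% with shSlpi-1), in these differences was not tested.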

How the results depend on the processing

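Of 1393 recomputed values of the members under all alternatives, 1262 kept their direction and side of the threshold, 68 lost a call, 41 gained one, 20 uncalled values changed sign and 2 called or newly called values turned round. Those 2 were Vegfa, Serpine2 over Slpi hairpins, at -0.033 with shSlpi-1 alone, and Vegfb, shSlpi-1 over shSlpi-2, at -0.19 (limma adjusted p = 0.0424) without library A of shSlpi-2 and 0.22 (limma adjusted p = 0.0280) without library B. With shSlpi-1 alone, these also turned round: Mmp9 to -0.64 (Slpi over shRenilla) and 0.29 (Serpine2 over Slpi), Bnip3 to 0.018 (Slpi over shRenilla), and Ero1l to -0.13, Bnip3l to -0.051 and Akt1 to 0.13 (Serpine2 over Slpi).

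Counts of members called moved as follows. With hairpin lines as units, which leaves few degrees of freedom, limma called 0 members in the Serpine2, the Slpi and the Serpine2 over Slpi comparisons, where 499, 1281 and 419 genes had an unadjusted p under 0.05. With only the libraries compared, or without both shSlpi-2 libraries, the counts were 5 for Serpine2 over shRenilla and 4 for shSerpine2-1 over shSerpine2-2. With eBayes without trend they were 3 for Serpine2 over Slpi and 3 for shSerpine2-1 over shRenilla, and with shSlpi-1 alone 3 for Serpine2 over Slpi. With the deposited values or voom, 2 members differed between the Serpine2 hairpins. Leaving out 1 library at a time gave 2 to 5 members for Serpine2 over shRenilla, 2 to 5 for shSerpine2-1, 1 to 3 for shSerpine2-2 and 1 to 4 between the Serpine2 hairpins. The replicate block kept all 9 counts, 3 for Serpine2 and 4 for Slpi among them. Without the filter the median log2 fold change of all genes was 0.16 for Slpi over shRenilla. Setting aside the fit on hairpin lines, which called 0 genes, calls over all genes ranged from 766 to 4176 for Serpine2 over shRenilla (2643 as reported), 2401 to 5135 for Slpi over shRenilla (4281) and 1049 to 3436 for Serpine2 over Slpi (2157). Upper-quartile scaling gave 860 higher and 1162 lower genes for Serpine2 over Slpi, where 1270 and 887 were reported. The causes of these shifts were not tested.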
